A study of Mus musculus with 4 samples.

Results

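Basigin (Bsg) and the glucose and lactate transporters Slc2a1, Slc2a3, Slc16a1 and Slc16a3 were followed in RNA counts from brain endothelial cells of C57BL/6 mice at embryonic day 18. The 5 genes were taken by name from 2 deposited tables that share 14100 genes, and all 5 were among the 13365 genes tested. They were chosen by name with measured levels in view, since Bsg had been selected on its read count, the highest of every library, so that rank is a description and carries no test. There were 2 libraries of the genotype labelled STING ECKO (numbers 1 and 2), an endothelial knockout of the DNA-sensing adaptor STING, and 2 wild type libraries (WT, numbers 3 and 5). The submitters' design text speaks of 3 replicates, while 2 per genotype were analysed here, and every mean, SD and test rests on those 2. Which recombinase drives the deletion, how the cells were isolated and whether animals were pooled is not stated in the sources used here. Nothing in the labels ties the libraries to separate animals, so the spread between the WT libraries may be no more than technical. STING ECKO 1 and 2 had 0 and 876 reads of the female-expressed Xist, so their spread was not technical alone. Whether either stands for a single animal is not known.

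Cells of the blood-brain barrier carry glucose from blood to brain through the facilitative transporter GLUT1, encoded by Slc2a1. Its relative GLUT3, encoded by Slc2a3, is best known as the high-affinity glucose carrier of neurons. Lactate, pyruvate and ketone bodies cross membranes with protons through the monocarboxylate transporters MCT1 (Slc16a1) and MCT4 (Slc16a3), the second of which is typical of strongly glycolytic cells. Basigin, or CD147, is a membrane glycoprotein of the immunoglobulin superfamily that escorts MCT1 and MCT4 to the cell surface. The deposited annotation gives Bsg an immunoglobulin domain, both GLUT genes the sugar transporter family, and both MCT genes the major facilitator family.

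Sequencing depth was 18610298 reads for STING ECKO 1, 22169261 for STING ECKO 2, 21472677 for WT 3 and 20591981 for WT 5. All 16 endothelial markers examined had reads in every library. Their summed level was 24609 and 25506 CPM in STING ECKO cells against 24741 and 24231 CPM in WT. A large part of it was Cldn5, at 10487 and 12536 CPM in STING ECKO cells against 10853 and 10529 CPM in WT. The median marker of that list was lowest in STING ECKO 2, at 547 and 478 CPM in STING ECKO cells against 576 and 571 CPM in WT. CPM are read counts relative to library size, here corrected by TMM factors, which balance libraries on the bulk of their genes. The targeted gene Tmem173 was at 3.65 and 8.32 CPM where the label was STING ECKO and 4.48 and 6.27 CPM in WT, so it did not separate the labels and all directions rest on them. Both STING ECKO libraries stood apart. STING ECKO 1 had 3623 reads of the Y-linked gene Ddx3y and 0 of Xist, while the others had 876 to 3374 reads of Xist. STING ECKO 2 had 0 reads for 13.2% of the shared genes, against 2.39% to 5.25% in the other libraries. Pericyte RNA was also present, at a summed 10113 and 10481 CPM over 12 markers in STING ECKO cells against 8239 and 7627 CPM in WT. Most of that sum was Rgs5, and the median marker of the list went the other way, at 104 and 141 CPM in STING ECKO cells against 151 and 148 CPM in WT. In bulk RNA, fewer cells of a type and less RNA per cell cannot be told apart.

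Bsg (ENSMUSG00000023175, chromosome 10, 79704491 to 79711969, plus strand, GRCm38) was counted at 247943 and 299734 reads in STING ECKO cells against 306905 and 267382 reads in WT. These reads made up 1.33% (exact binomial 95% interval 1.33 to 1.34) and 1.35% (1.35 to 1.36) of the STING ECKO libraries, and 1.43% (1.42 to 1.43) and 1.30% (1.29 to 1.30) of the WT libraries. The intervals cover counting error alone. The next most counted gene was the claudin gene Cldn5 with 192398 and 274159 reads in STING ECKO cells against 234754 and 218312 in WT. Scaled for the length of annotated exons, Bsg stood at 7450 and 7555 CPM per kilobase in STING ECKO cells against 7822 and 7109 in WT. By that measure it ranked first in STING ECKO 1 and WT 3, below Cldn5 in WT 5, and below Cldn5 and the actin-binding Tmsb10 in STING ECKO 2.

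Per kilobase of exon the order of the 5 genes was Bsg, Slc2a1, Slc16a1, Slc16a3 and Slc2a3, with means over the 4 libraries of 7484, 1877, 120.3, 6.03 and 1.70 CPM per kilobase. The first 3 genes kept their order in each library without overlap. The last pair did not separate: in STING ECKO 2 Slc16a3 was at 0.731 and Slc2a3 at 0.884 CPM per kilobase, and in WT 3 they were at 1.91 and 1.81. Slc2a1 supplied 99.9% and 99.9% of the reads of the GLUT pair in STING ECKO cells against 99.8% and 99.7% in WT. Slc16a1 supplied 91.5% and 99.1% of the reads of the MCT pair in STING ECKO cells against 97.7% and 92.0% in WT. All 5 genes together took 2.13% and 1.85% of the reads in STING ECKO cells against 2.19% and 2.10% in WT.

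**Figure D1:**
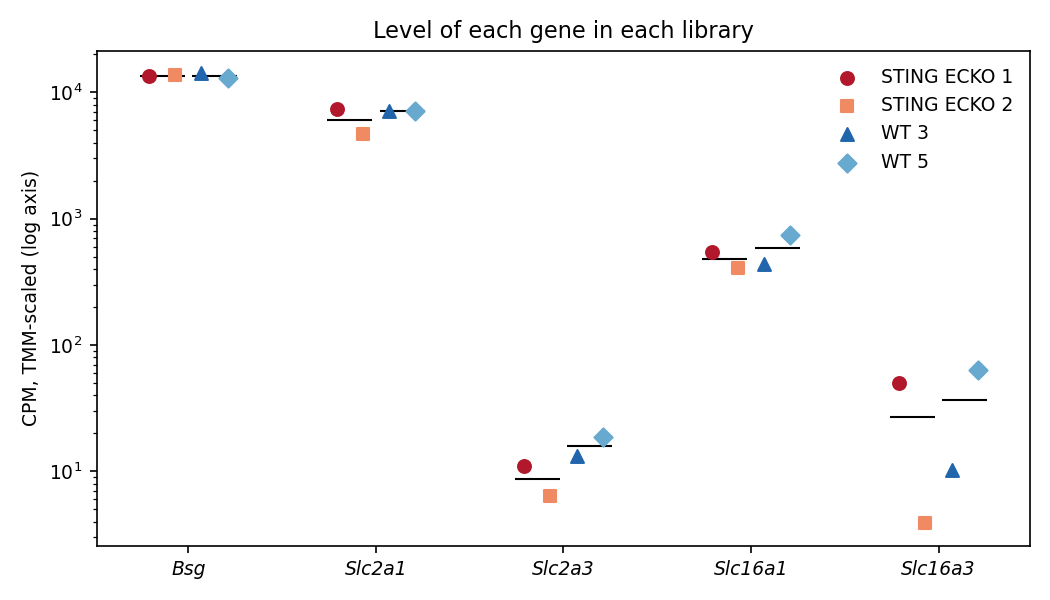
Level of each gene in CPM on a log axis, with 1 symbol per library and black lines at the mean of each genotype (n = 2 each). Bsg lay between 12896 and 14189 CPM in the 4 libraries, while Slc16a3 ranged from 3.89 to 63.7 CPM.

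RefSeq promoter windows matched 3 of the 5 genes, Slc2a1, Slc16a1 and Slc16a3. They are shown for these genes because no window was found for Bsg or Slc2a3. The windows are the 250 bases before the RefSeq start site on GRCm38.p6, plus strand, at chr4:119108495-119108744, chr3:104638414-104638663 and chr11:120948817-120949066. The deposited gene spans start earlier for Slc16a3, at 120948480, and for Slc2a1, at 119108711. By those spans the Slc16a3 window lies inside its gene, and the end of the Slc2a1 window does too. Capitals mark ACGTG on either strand, the core letters of the hypoxia response element; in Slc16a1 its match on each strand overlaps as CACGTG.
Slc2a1: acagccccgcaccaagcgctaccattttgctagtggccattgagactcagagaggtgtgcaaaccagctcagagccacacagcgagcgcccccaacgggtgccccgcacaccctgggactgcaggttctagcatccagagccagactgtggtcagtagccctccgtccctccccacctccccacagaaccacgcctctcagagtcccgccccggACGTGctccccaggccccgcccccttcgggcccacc
Slc16a1: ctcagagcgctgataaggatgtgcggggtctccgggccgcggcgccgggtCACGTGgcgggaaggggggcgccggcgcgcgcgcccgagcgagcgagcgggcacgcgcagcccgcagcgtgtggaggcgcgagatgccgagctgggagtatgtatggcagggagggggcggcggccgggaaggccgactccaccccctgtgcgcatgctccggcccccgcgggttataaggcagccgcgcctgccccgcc
Slc16a3: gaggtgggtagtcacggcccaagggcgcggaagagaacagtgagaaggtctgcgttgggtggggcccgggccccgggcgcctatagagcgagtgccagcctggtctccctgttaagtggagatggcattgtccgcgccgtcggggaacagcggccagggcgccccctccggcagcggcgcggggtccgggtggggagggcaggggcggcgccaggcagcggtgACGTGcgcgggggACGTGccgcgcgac
The first base of the match lay 36 bases before the start in Slc2a1, 200 bases in Slc16a1, and 27 and 14 bases in Slc16a3. All 3 windows held ACGTG, as did 16.6% of 32851 mouse promoter windows of the same length. The longer CACGTG was in the Slc16a1 window only, and in 6.02% of all windows. They also all held GGGCGG on either strand, the letters of a GC box, as did 32.7% of all windows, and their GC content was 66.4%, 76.4% and 73.6%. The 32851 windows were not matched to these for GC content, so the shares cannot show an excess of any of the motifs. A match of letters is a description and shows no binding.

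The comparison asks which genes differ between STING ECKO and WT endothelial cells, and none of the 5 passed. The quasi-likelihood test of edgeR, adjusted by Benjamini-Hochberg, called 0 of 13365 genes (0.0%), and 642 had an unadjusted p under 0.05. Under DESeq2 87 genes passed (0.651%), and the edgeR likelihood ratio test called 33 and limma-voom 0. Of the 5 genes, 0 passed in any of these tests and 0 had an unadjusted p under 0.05 in the quasi-likelihood test. Of the 5 genes, 1 (Slc2a3) was lower in both STING ECKO libraries than in both WT libraries, beside 19.0% of all tested genes. None of the 5 was higher in both, beside 15.4% of all tested genes, and 34.4% of genes had no overlap in either direction.

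Bsg was at 13515 and 13705 CPM in STING ECKO cells against 14189 and 12896 CPM in WT. The STING ECKO values lay between the WT values. Means were 13610 ± 135 CPM in STING ECKO cells against 13542 ± 915 CPM in WT (SD, n = 2 each). This gave a log2 fold change of 0.0072 (SE 0.13, adjusted p = 1.00 in the edgeR quasi-likelihood test). Its 95% interval ran from 0.800-fold to 1.26-fold of WT, the narrowest of the 5. Its sign depended on the scaling, at -0.024 on library totals and on totals without Bsg, and -0.025 on sizes from the endothelial list, and it was -0.052 without WT 5. The spread of Bsg over the 4 libraries was small: 99.6% of all tested genes, and 99.0% of genes at a mean of at least 50 CPM, had a wider range of log2 CPM. Bsg had been selected on these same counts, and neither set was matched to its level, so this is a description.

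Slc2a1 (ENSMUSG00000028645, chromosome 4, 119108711 to 119137983, plus strand), the barrier's glucose carrier, had 136766 and 102018 reads in STING ECKO cells against 153315 and 147513 reads in WT. Its levels were 7455 and 4665 CPM in STING ECKO cells against 7088 and 7114 CPM in WT. The WT libraries were close together, and the STING ECKO libraries lay on either side of them. Slc2a1 was the fourth most counted gene in STING ECKO 1 and both WT libraries, and the 11th in STING ECKO 2. The mean was 6060 ± 1973 CPM in STING ECKO cells against 7101 ± 18.6 CPM in WT (SD, n = 2 each). This gave a log2 fold change of -0.23 (SE 0.25, adjusted p = 1.00 in the edgeR quasi-likelihood test). The 95% interval ran from 0.552-fold to 1.32-fold. The value rested on single libraries: it became 0.076 when STING ECKO 2 was left out and -0.60 when STING ECKO 1 was. Fetal red cells of the mouse also carry GLUT1. Of 12 erythroid markers 9 were listed, and they summed to 2944 and 4519 CPM in STING ECKO cells against 4369 and 2611 CPM in WT, much of it from Tfrc, which brain endothelium also uses. Haemoglobin Hba-a1 alone was at 943 and 2450 CPM in STING ECKO cells against 2003 and 1024 CPM in WT. The part of red cell RNA in Slc2a1 was not tested. An antisense gene that shares exon sequence with Slc2a1, Gm12868, had 43 and 30 reads in STING ECKO cells against 74 and 24 in WT, and the sources used here do not say whether counting used strand.

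Slc2a3 (ENSMUSG00000003153, chromosome 6, 122727809 to 122801640, minus strand), the neuronal glucose carrier, had 203 and 140 reads in STING ECKO cells against 284 and 388 reads in WT. These were 11.1 and 6.40 CPM in STING ECKO cells against 13.1 and 18.7 CPM in WT. Both STING ECKO libraries lay below both WT libraries, with the gap between STING ECKO 1 and WT 3 smaller than the spread within either genotype. The mean was 8.73 ± 3.30 CPM in STING ECKO cells against 15.9 ± 3.95 CPM in WT (SD, n = 2 each). This gave a log2 fold change of -0.87 (SE 0.92, adjusted p = 1.00 in the edgeR quasi-likelihood test). The 95% interval ran from 0.107-fold to 2.80-fold. The value stayed below 0 in all 14 alternatives that gave one, between -1.31 and -0.52. Of the 12 neuronal markers, 10 were listed and summed to 68.8 and 42.6 CPM in STING ECKO cells against 145 and 95.9 CPM in WT. Syn1, encoding synapsin, was at 0 reads in STING ECKO 1 and 2 and at 279 and 291 in WT, and Gap43 had 1 and 0 reads against 228 and 399. Other neuronal markers went differently: Rbfox3 had 118 and 317 reads in STING ECKO cells against 26 and 185 in WT. The 10 markers of astrocytes and radial glia summed to 339 and 225 CPM in STING ECKO cells against 407 and 343 CPM in WT, with Slc1a3 at 241 and 13 reads in STING ECKO cells against 1100 and 704 in WT. Aqp4, Slc1a2 and Aldh1l1 of that list were at 0 reads in STING ECKO 2. Most of the sum of that list was Gja1, at 263 and 210 CPM in STING ECKO cells against 277 and 249 CPM in WT. Gja1, Aldh1l1, Fabp7 and Aldoc each overlapped between the genotypes. Both sums, like Slc2a3, were lower in both STING ECKO libraries, though many markers were not. Of the neuronal markers, Tubb3, Syn1, Gap43 and Dcx were lower in both. Rbfox3, Snap25, Stmn2, Map2 and Slc17a6 overlapped between the genotypes, and Gad1 was listed for STING ECKO 2 and WT 5 only. The part of neuronal and glial RNA in the result was not tested. Among genes that averaged 5 to 20 CPM over the remaining libraries, STING ECKO 2 held no read of 15.7%, STING ECKO 1 of 1.40%, WT 3 of 4.46% and WT 5 of 2.66%.

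Slc16a1 (ENSMUSG00000032902, chromosome 3, 104638668 to 104658462, plus strand), encoding MCT1, had 9943 and 8984 reads in STING ECKO cells against 9516 and 15288 reads in WT. Its levels were 542 and 411 CPM in STING ECKO cells against 439.9 and 737 CPM in WT. WT 5 stood above the other 3 libraries, and the genotypes overlapped. The mean was 476 ± 92.8 CPM in STING ECKO cells against 589 ± 210 CPM in WT (SD, n = 2 each). This gave a log2 fold change of -0.31 (SE 0.31, adjusted p = 1.00 in the edgeR quasi-likelihood test). The 95% interval ran from 0.466-fold to 1.40-fold. Without WT 5 the log2 fold change was 0.12, and without WT 3 it was -0.63.

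Slc16a3 (ENSMUSG00000025161, chromosome 11, 120948480 to 120960868, plus strand), encoding MCT4, had 925 and 85 reads in STING ECKO cells against 220 and 1321 reads in WT. Its levels were 50.4 and 3.89 CPM in STING ECKO cells against 10.2 and 63.7 CPM in WT. Each genotype held 1 high and 1 low library, and the difference was 13.0-fold within STING ECKO and 6.26-fold within WT. Of all tested genes, 14.5% differed more between the STING ECKO libraries and 11.0% more between the WT libraries. The mean was 27.2 ± 32.9 CPM in STING ECKO cells against 36.9 ± 37.9 CPM in WT (SD, n = 2 each). This gave a log2 fold change of -0.44 (SE 1.39, adjusted p = 1.00 in the edgeR quasi-likelihood test). The 95% interval ran from 0.0632-fold to 8.54-fold. The log2 fold change was 1.42 without WT 5, 0.45 without STING ECKO 2, -1.23 without WT 3 and -3.24 without STING ECKO 1. The 12 microglia and macrophage markers summed to 615 and 439 CPM in STING ECKO cells against 594 and 1478 CPM in WT. This sum ranked the libraries as Slc16a3 did, but only 4 of the 12 markers (Csf1r, Tyrobp, Mrc1 and Lyz2) did so one by one, and 8 did not. Csf1r, a receptor of these cells, was at 90.0 and 21.8 CPM in STING ECKO cells against 86.5 and 225 CPM in WT. P2ry12 of microglia was at 23.5 and 47.9 CPM in STING ECKO cells against 24.5 and 6.66 CPM in WT, highest in STING ECKO 2, where Slc16a3 was lowest. Mrc1 of macrophages was at 24.3 and 20.99 CPM in STING ECKO cells against 21.7 and 258 CPM in WT, so it stood out in WT 5. Of these markers, Ptprc was at 0 reads in STING ECKO 2 and none was at 0 in the other libraries. Their part in the level of Slc16a3 was not tested.

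**Figure D2:**
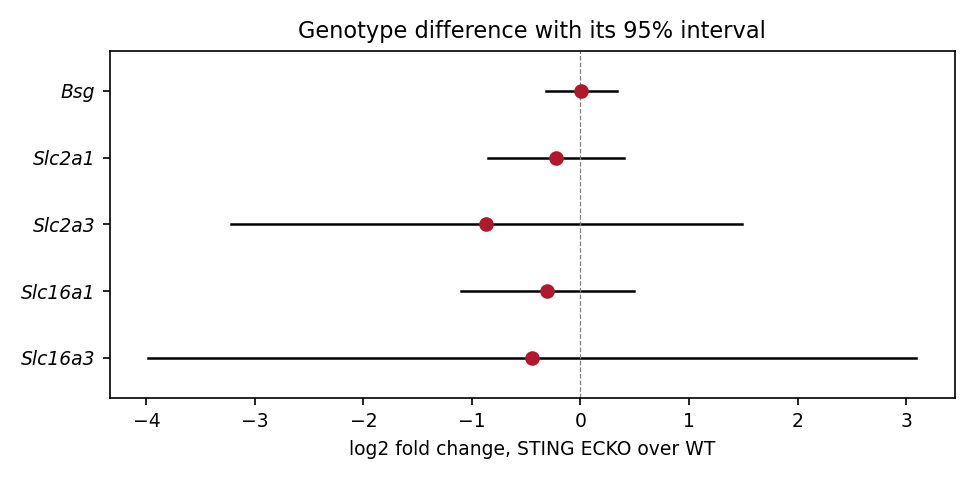
Log2 fold change of STING ECKO over WT for each gene (points) with its 95% interval from the edgeR quasi-likelihood fit (lines), n = 2 libraries per genotype. All 5 intervals cross 0, from -0.32 to 0.34 in Bsg and from -3.98 to 3.09 in Slc16a3.

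The 4 transporters shared their lowest library. All 4 were lowest in STING ECKO 2, where 39.3% of all tested genes and 32.6% of those at a mean of at least 50 CPM were lowest. Slc2a3, Slc16a1 and Slc16a3 were highest in WT 5, where 23.7% of all tested genes were highest. Bsg had neither of these extremes. Relative to its own mean over the 4 libraries, on the log2 CPM scale with a prior count of 2, STING ECKO 2 was at -0.47 for Slc2a1, -0.83 for Slc2a3, -0.34 for Slc16a1 and -2.26 for Slc16a3, and at 0.01 for Bsg. The differences between the STING ECKO libraries, on the same scale, were 0.68 for Slc2a1, 0.78 for Slc2a3, 0.40 for Slc16a1 and 3.66 for Slc16a3. The median absolute difference was 0.85 over all tested genes and 0.44 over those averaging 50 CPM or more, where Slc2a1 and Slc16a1 lie. WT 3 minus WT 5 was -0.01 for Slc2a1, -0.51 for Slc2a3, -0.74 for Slc16a1 and -2.64 for Slc16a3, beside median absolute differences of 0.58 over all tested genes and 0.31 at a mean of at least 50 CPM.

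**Figure D3:**
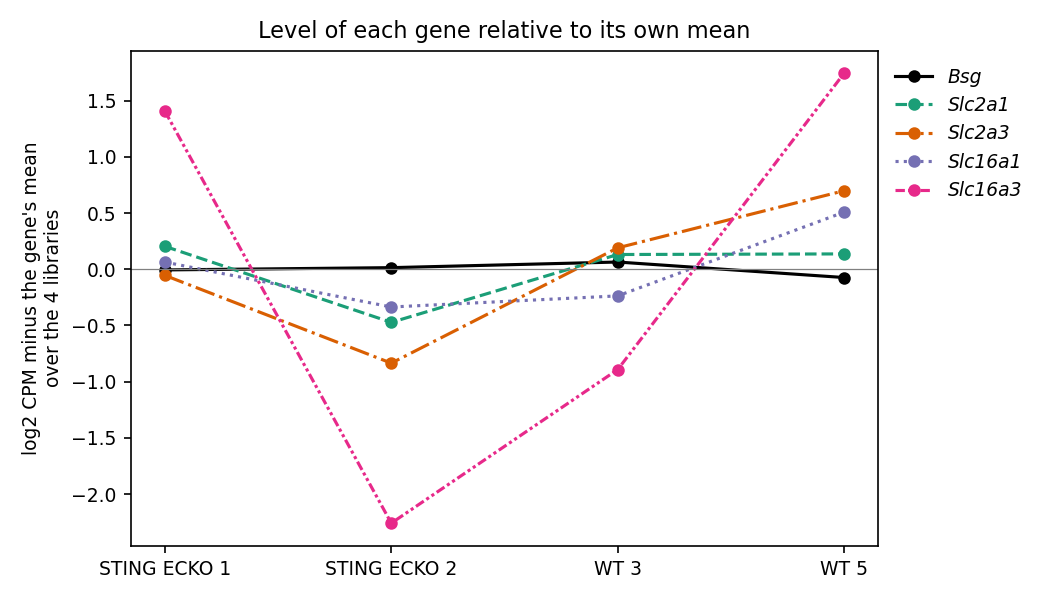
Log2 CPM of each gene minus its own mean over the 4 libraries, with lines that only join the points of a gene. The 4 transporters have their lowest point in STING ECKO 2, while Bsg stays between -0.07 and 0.06.

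Ratios within a library do not depend on its size, and they set each carrier beside its partner. For 100 reads of Bsg there were 55.2 and 34.0 reads of Slc2a1 in STING ECKO cells against 49.96 and 55.2 in WT. STING ECKO 2 alone stood low, and the mean log2 ratio was -1.21 ± 0.49 in STING ECKO cells against -0.93 ± 0.10 in WT (SD, n = 2 each; exact two-sided permutation test, adjusted p = 0.889 over 4 ratios). For 100 reads of Bsg there were 4.01 and 3.00 reads of Slc16a1, its client, in STING ECKO cells against 3.10 and 5.72 in WT, with WT 5 alone high (exact permutation test, adjusted p = 0.889). For 100 reads of Slc2a1 there were 0.148 and 0.137 reads of Slc2a3 in STING ECKO cells against 0.185 and 0.263 in WT. This ratio was lower in both STING ECKO libraries than in both WT libraries, at a mean log2 difference of -0.63 (exact permutation test, p = 0.333, adjusted p = 0.889). For 100 reads of Slc16a1 there were 9.30 and 0.946 reads of Slc16a3 in STING ECKO cells against 2.31 and 8.64 in WT (exact permutation test, adjusted p = 1.00). With 2 libraries per genotype the smallest p this test can give is 0.333.

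**Figure D4:**
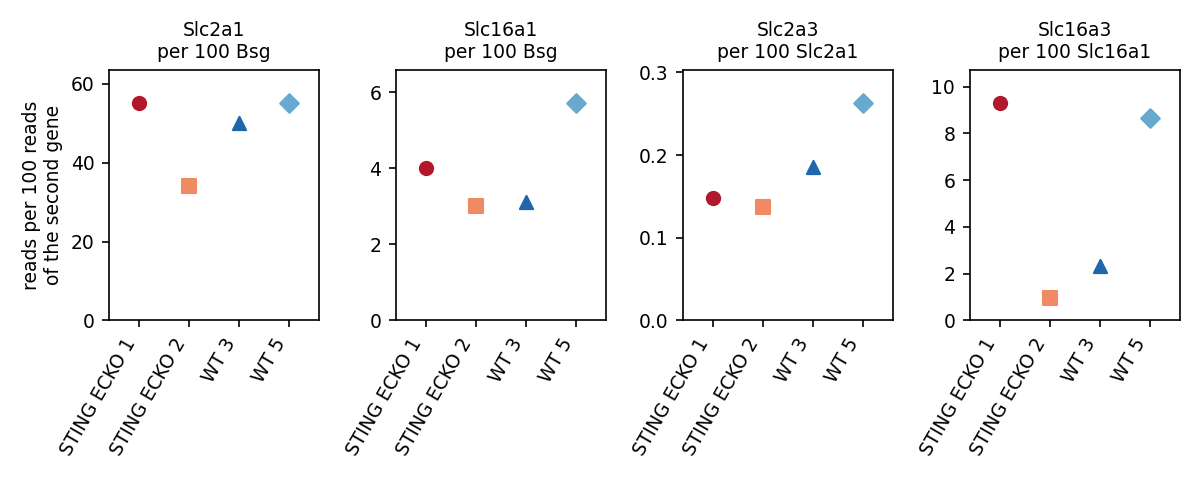
Reads of a transporter per 100 reads of its partner or relative in each library, with each axis starting at 0. Slc2a1 per 100 Bsg reads is 34.0 in STING ECKO 2 and 49.96 to 55.2 in the other libraries, and Slc16a3 per 100 Slc16a1 reads is high in STING ECKO 1 and WT 5.

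Genes that act with these carriers were described from 6 lists holding 60 tested genes besides the 5 themselves. Of these 60, 8 were lower and 11 higher without overlap in STING ECKO, beside 19.0% and 15.4% of all tested genes. In edgeR's quasi-likelihood test, adjusted over all genes, 0 of the 60 rose and 0 fell. An unadjusted p under 0.05 in that test was seen for 2 of them, beside 642 of all 13365 tested genes. In DESeq2 1 passed, beside 0.651% of all tested genes. Of the 60, 30 had a log2 fold change below 0 and 30 above, where 51.8% of all tested genes were below 0. Among the other hexose transporters, 2 of 3 tested genes had a log2 fold change below 0. Slc2a8, an intracellular hexose carrier, was at 49.98 and 22.1 CPM in STING ECKO cells against 26.9 and 39.2 CPM in WT. Slc2a10, encoding GLUT10, had 26 and 2 reads in STING ECKO cells against 302 and 776 reads in WT. It was the gene called by DESeq2 (adjusted p = 0.0451), while the edgeR quasi-likelihood test gave it a log2 fold change of -5.09 (SE 1.67, adjusted p = 0.977). Slc2a12 had 66 and 0 reads in STING ECKO cells against 25 and 196 in WT.

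Of the other monocarboxylate transporters, 6 of 7 tested genes had a log2 fold change below 0, beside 51.8% of all tested genes. Slc16a6 was at 125 and 117 CPM in STING ECKO cells against 155 and 120.1 CPM in WT, and Slc16a4 at 73.5 and 63.1 CPM in STING ECKO cells against 68.8 and 74.4 CPM in WT. Per kilobase of exon Slc16a6 averaged 26.5 and Slc16a4 18.03 CPM per kilobase, above the 6.03 CPM per kilobase of Slc16a3. The median log2 fold change of those 7 genes was -0.19, beside -0.03 over all tested genes. With Slc16a1 and Slc16a3 included it was -0.31, which became -0.063 without STING ECKO 2 and -0.13 without WT 5.

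Of the relatives and partners of basigin, 0 passed the test. Slc3a2, the CD98 heavy chain found in complexes with basigin, was at 2297 and 2645 CPM in STING ECKO cells against 2320 and 2298 CPM in WT. Slc7a5, the amino acid carrier bound to CD98, was at 1936 and 3230 CPM in STING ECKO cells against 2095 and 1498 CPM in WT, with STING ECKO 2 the highest library. Ppia, encoding cyclophilin A, an extracellular ligand of basigin, was at 1943 and 2015 CPM in STING ECKO cells against 2124 and 1852 CPM in WT. Over the 12 tested genes of that list, Bsg included, 7 had a log2 fold change above 0 and 5 below. Their median was 0.05, and without 1 library in turn it lay between 0.065 and 0.18. Each of those fits filtered the genes anew, so its median can cover other genes of the list.

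Among genes of GLUT1 trafficking, 8 of 11 had a log2 fold change above 0, with a median of 0.27 that became 0.13 without WT 3 and 0.15 without STING ECKO 1. Txnip, an arrestin that promotes the uptake of GLUT1 into the cell, was at 258 and 181 CPM in STING ECKO cells against 229 and 357 CPM in WT. Gipc1, a PDZ protein that binds GLUT1, was at 350.3 and 468 CPM in STING ECKO cells against 299 and 375 CPM in WT. Vps29, a subunit of the retromer that returns GLUT1 to the surface, was at 273 and 238 CPM in STING ECKO cells against 218 and 195 CPM in WT, higher without overlap in STING ECKO, with a log2 fold change of 0.31 (SE 0.22) that did not pass.

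The genes of lactate and pyruvate use had 7 of 14 log2 fold changes below 0. Their median of -0.08 was not stable, at -0.46 when STING ECKO 1 was left out, -0.19 when WT 5 was, 0.023 when STING ECKO 2 was and 0.18 when WT 3 was. The genes that passed the filter can differ between these fits. Ldha, the lactate dehydrogenase subunit that favours lactate, was at 1598 and 1250.4 CPM in STING ECKO cells against 1995 and 1828 CPM in WT. Its genotypes did not overlap, at a log2 fold change of -0.42 (SE 0.19) that did not pass (adjusted p = 1.00 in the edgeR quasi-likelihood test). Pkm, pyruvate kinase, was at 2512 and 2401 CPM in STING ECKO cells against 2659 and 2168 CPM in WT, and Pdhb of pyruvate dehydrogenase at 239 and 151 CPM in STING ECKO cells against 254 and 191 CPM in WT. Of the hypoxia regulators and targets, 7 of 14 were below 0. Their median of -0.03 also turned, at -0.28 when STING ECKO 1 was left out, 0.081 when STING ECKO 2 was, 0.019 when WT 5 was and -0.0083 when WT 3 was. Adm, encoding adrenomedullin, was at 855 and 463 CPM in STING ECKO cells against 806 and 650.0 CPM in WT, lowest in STING ECKO 2 as the transporters were. Epas1, the hypoxia-inducible factor of endothelium, was at 494 and 487 CPM in STING ECKO cells against 644 and 526 CPM in WT, lower without overlap. Ankrd37, a target of these factors, was at 247 and 248 CPM in STING ECKO cells against 242 and 189.7 CPM in WT, higher without overlap, and neither gene passed. Arnt, the shared partner of the hypoxia-inducible factors, was chosen after its values were seen. It was at 97.1 and 104 CPM in STING ECKO cells against 40.7 and 39.0 CPM in WT, a log2 fold change of 1.34 (SE 0.33) that did not pass (adjusted p = 0.977 in the edgeR quasi-likelihood test).

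**Figure D5:**
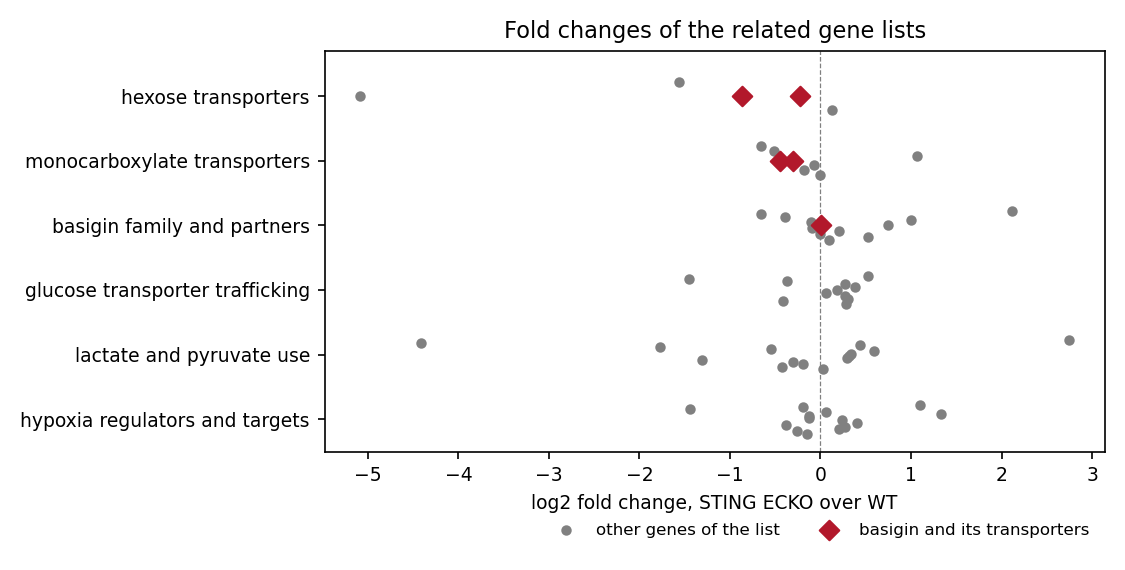
Log2 fold changes of STING ECKO over WT for the genes of the 6 lists (grey) and for basigin and its transporters (red diamonds), from the edgeR quasi-likelihood fit. Slc2a10 lies farthest left at -5.09, and the median over all tested genes is -0.03.

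The profile most like each gene was sought among 4069 genes at a mean of at least 50 CPM, by the root mean square difference of log2 CPM after centring each gene over the 4 libraries. For Bsg these were Sparc (0.015), Papss1 (0.019) and M6pr (0.020), where the median candidate was at 0.31. For Slc2a1 they were Gatad2a (0.034), Ddx5 (0.039) and Adgrf5 (0.040), where the median was 0.41. Sparc, which encodes a matricellular protein, stood at 3158 and 3198 CPM in STING ECKO cells against 3346 and 2954 CPM in WT, and Adgrf5, an adhesion receptor of endothelium, at 703 and 445 CPM in STING ECKO cells against 635 and 685 CPM in WT. For Slc16a1 they were Aagab (0.026), Traf7 (0.037) and Tdrp (0.042), where the median was 0.45. For Slc2a3 they were Fbxw17 (0.070), Tmem168 (0.088) and Phip (0.091), where the median was 0.64. For Slc16a3 the nearest of these candidates were Dnaaf5 (0.58), Gnpat (0.69) and Ddx54 (0.69), where the median was 1.68. Slc2a3 and Slc16a3 themselves averaged below 50 CPM, so both were compared only with genes of a higher mean level. A wider range of log2 CPM than that of Slc16a3 was seen in 0.565% of genes at 50 CPM or above, against 23.5% of all tested genes. The search therefore cannot say whether Slc16a3 lacks a close match among genes of its own level.

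The authors' deposited tables compare 1 library with 1 library and mark as changed 40.9% of genes between STING ECKO 1 and WT 3 and 52.1% between STING ECKO 2 and WT 5. Slc16a3 was marked in both of the authors' deposited tables, at 4.85-fold of WT in the first and 0.0598-fold in the second, so in opposite directions. Slc2a3 was marked in the second of the authors' deposited tables (0.335-fold) and unmarked in the first (0.825-fold). Bsg was at 0.932-fold and 1.04-fold, Slc2a1 at 1.03-fold and 0.642-fold, and Slc16a1 at 1.21-fold and 0.546-fold in the authors' deposited tables, all unmarked.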

How the data were processed

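The authors deposited 1 table for each pair of libraries, with a read count per gene and library, per the file headers. A second set of deposited values is CPM, in which a count of 0 stands as a value above 0. The authors' fold ratio, log2 and p-value columns compare 1 library with 1 library. Bowtie2 2.2.3, TopHat2 2.0.12, HTSeq 0.6.0 and mm9 are named in the submitters' processing notes. Positions matched GENCODE M21 on GRCm38 exactly for 16041 of 17872 genes (89.8%), and coordinates are printed on that build. The tables were joined by gene identifier (14100 genes in both), and 20 symbols altered by a spreadsheet were restored.

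Counts were analysed with edgeR 4.0.16 in R 4.3.3: filterByExpr (minimum count 10), TMM factors, the quasi-likelihood test on genotype, and Benjamini-Hochberg adjustment over 13365 genes (threshold 0.05). DESeq2 1.42.0, limma 3.58.1, other scalings and filters, the deposited table as a block, and leaving out each library were alternatives. The code was tested on simulated data. Exon lengths are merged exons of GENCODE M21, and promoter sequences are from RefSeq.

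The 5 genes, lists and tests were chosen with earlier results of these data known. Named list genes are the 3 with the highest mean CPM per list, of which 1 is not reported here, and the 3 closest profiles per gene were named, leaving out predicted genes. Markers not listed in a table were counted as 0. Single marker genes were picked after their values were seen.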

Additional observations from a re-analysis of the deposited data

How the results depend on the processing

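Over 73 refits of the 5 genes under 15 alternatives, 0 passed the threshold and 65 kept their direction, with adjusted p from 0.184 to 1.00. DESeq2 called 87 genes and the edgeR likelihood ratio test 33, where the quasi-likelihood test called 0. The other alternatives, limma-voom and the fit with the deposited table as a block included, also called 0. The sign of Bsg (0.0072) turned on library totals (-0.024), on totals without Bsg (-0.024) and on sizes from the endothelial list (-0.025), at differences far below its SE. With the deposited table as a replicate block the log2 fold changes were 0.01 for Bsg, -0.27 for Slc2a1, -0.90 for Slc2a3, -0.27 for Slc16a1 and -0.85 for Slc16a3. The genotypes share no replicate numbers, so that block rests on the tables alone.

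Leaving out each library in turn gave log2 fold changes from -0.052 (without WT 5) to 0.081 for Bsg, from -0.60 to 0.076 (without STING ECKO 2) for Slc2a1, from -1.31 to -0.52 for Slc2a3, from -0.63 to 0.12 (without WT 5) for Slc16a1, and from -3.24 to 1.42 (without WT 5) for Slc16a3, which was 0.45 without STING ECKO 2. The ratio differences, on the log2 scale, ran from -0.63 to 0.071 (without STING ECKO 2) for Slc2a1 over Bsg, from -0.72 to 0.16 (without WT 5) for Slc16a1 over Bsg, from -0.88 to -0.38 for Slc2a3 over Slc2a1, and from -2.24 to 1.06 (without STING ECKO 2) for Slc16a3 over Slc16a1, which was 0.36 without WT 5. A fit without 1 library takes its spread from the other genotype, whose variation the lone sample is assumed to share. The cause of these changes was not tested. The filter at a mean of 50 CPM left Slc2a3 and Slc16a3 without a value. Without 1 library the list medians of lactate and pyruvate use (-0.46 to 0.18) and of hypoxia genes (-0.28 to 0.081) changed sign. Those of hexose (-1.31 to -0.22) and monocarboxylate transporters (-0.42 to -0.063), basigin partners (0.065 to 0.18) and trafficking (0.13 to 0.37) kept theirs. These fits filtered the genes anew and tested 13625 to 13750 genes, so a change of list median may also reflect other genes entering. With 2 libraries per genotype the exact two-sided permutation test of the ratios cannot go below p = 0.333, and Slc2a3 rested on 140 to 388 reads per library.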
